A study of Mus musculus with 3 samples.

Results

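Fractalkine, the chemokine encoded by Cx3cl1, was followed in cultured embryonic interneurons together with its receptor gene Cx3cr1 and the genes of the proteases that release it, Adam10 and Adam17. These 4 genes were taken by name: each has 1 probe set that the platform's annotation assigns to it alone, so 4 of 41345 probe sets and 4 of the 22180 genes with a probe set of their own were used. Expression was measured with 1-colour Affymetrix arrays in 3 cultures, which the labels call biological replicates of purified MGE interneurons. The medial ganglionic eminence (MGE) is a region of the ventral forebrain that produces many GABA-releasing interneurons. The cells came from wild-type CD-1 mouse embryos at embryonic day 13 and were grown in FGF2 (40 ng/ml). AraC (1 µM), a nucleoside analogue that kills cells in DNA synthesis, was present for 24 h from day 5, was removed in 3 medium changes, and RNA was taken after 2 further days. All 3 cultures form 1 group and all had received FGF2 and AraC. No other group belongs to the data, so a gene can be placed against background and compared between cultures, but not between conditions. The labels do not say whether the cultures came from separate litters, so the p values measure only the spread between these 3 samples.

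Fractalkine is made as a membrane protein in which a chemokine domain sits on a long mucin-like stalk. On the cell surface it can hold cells that carry its receptor, and when the stalk is cut near the membrane the soluble part acts as a secreted signal. Adam10 is the protease mainly linked to constitutive release and Adam17 the one mainly linked to release after stimulation. The receptor Cx3cr1 couples to inhibitory G proteins, and in the brain it is best known from microglia, while neurons are a main source of the ligand. The study, as far as it is known, asked which signals these interneurons send to neighbouring precursor cells, oligodendrocyte precursors among them.

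Markers of interneurons were above background, and so were markers of other cells, in cultures where 63.4% of all genes tested were. All 14 measured interneuron genes and 10 of 10 neuronal genes were above background, including Gad1, Gad2, Slc32a1 and Lhx6. So were 10 of 10 oligodendrocyte precursor genes, 7 of 7 progenitor genes, 7 of 8 astrocyte genes, 8 of 19 microglial genes and 6 of 8 endothelial genes. The endothelial share lies near that of all genes and the microglial share under it. The endothelial count was 3 without culture 1, 0 with a threshold raised by 1 log2 unit and 1 at a threshold set at the 99th percentile of background. Of all genes, 62.3%, 47.6% and 49.8% were called under these rules. Since each array measured a whole culture, the cells that gave a signal cannot be told, and fewer cells of a type and less RNA per cell cannot be told apart. Values are log2 signals as the authors deposited them. The probes of different genes bind with different strength, so levels are no comparison of expression between genes. Calls and distances to background set a gene beside probe sets of other genes, and sums add signals of several genes. They carry this limit too. The number of arrays limits the precision.

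All 4 genes gave signal above background. Background was read from 1435 probe sets of chemosensory receptor genes (olfactory, vomeronasal and bitter taste), which serve sensory cells outside the forebrain. The line used, 6.26 log2 units, is the 95th percentile of the mean signals of these sets. Limma's 1-sided moderated test with Benjamini-Hochberg adjustment called 4 of 4 members, where 63.4% of the 20755 genes tested were called, so a call by itself is common. At the 99th percentile of background, 7.10, 3 of 4 were called against 49.8% of genes. With a margin of 1 log2 unit over the threshold, 3 of 4 were called against 47.6%. Cx3cr1 was the member not called under either rule. When every culture had to lie above 6.26, with no test, 4 of 4 did so, as did 64.5% of genes.

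The ligand gene Cx3cl1 had log2 signals of 9.20, 9.72 and 9.35 in cultures 1, 2 and 3. Every culture lay at least 2.94 log2 units over the threshold, and culture 2 was the highest. The mean was 9.42 ± 0.27 (SD, n = 3), with a 95% confidence interval from limma of 9.10 to 9.75, and it exceeded the threshold by 3.16 (limma, adjusted p = 1.29e-05). Of the 1435 background probe sets, 1 had a higher mean, that of Vmn1r233, a vomeronasal receptor gene, at 11.07, which is named after its value was seen.

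The receptor gene Cx3cr1 lay closest to background. Its log2 signals were 7.32, 6.92 and 7.36 in cultures 1, 2 and 3. Cultures 1 and 3 lay above the stricter line of 7.10 and culture 2 lay between it and the main line of 6.26. The mean was 7.20 ± 0.24 (SD, n = 3), with a 95% confidence interval of 6.90 to 7.50, and it exceeded the threshold by 0.94 (limma, adjusted p = 0.000803). With the 99th percentile as threshold the mean was 0.10 higher and the adjusted p was 0.404 (range over the alternatives with a p, 8.13e-05 to 1), and with the margin of 1 the mean was under the line. In the background set, 12 probe sets (0.836%) had a higher mean than Cx3cr1.

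Of the sheddase genes, Adam10 had log2 signals of 10.15, 9.97 and 10.00 in cultures 1, 2 and 3, which differed by at most 0.18. Its mean was 10.04 ± 0.10 (SD, n = 3), with a 95% confidence interval of 9.87 to 10.21, and exceeded the threshold by 3.78 (limma, adjusted p = 1.61e-06). Adam17 had log2 signals of 8.35, 8.05 and 8.11. Its mean was 8.17 ± 0.16 (SD, n = 3), with a 95% confidence interval of 7.95 to 8.39, and exceeded the threshold by 1.91 (limma, adjusted p = 1.95e-05). Both sheddase genes were highest in culture 1, and all 3 cultures lay above the 99th percentile of background for both. Of the background probe sets, 1 had a higher mean than Adam10 and 2 had a higher mean than Adam17.

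**Figure D1:**
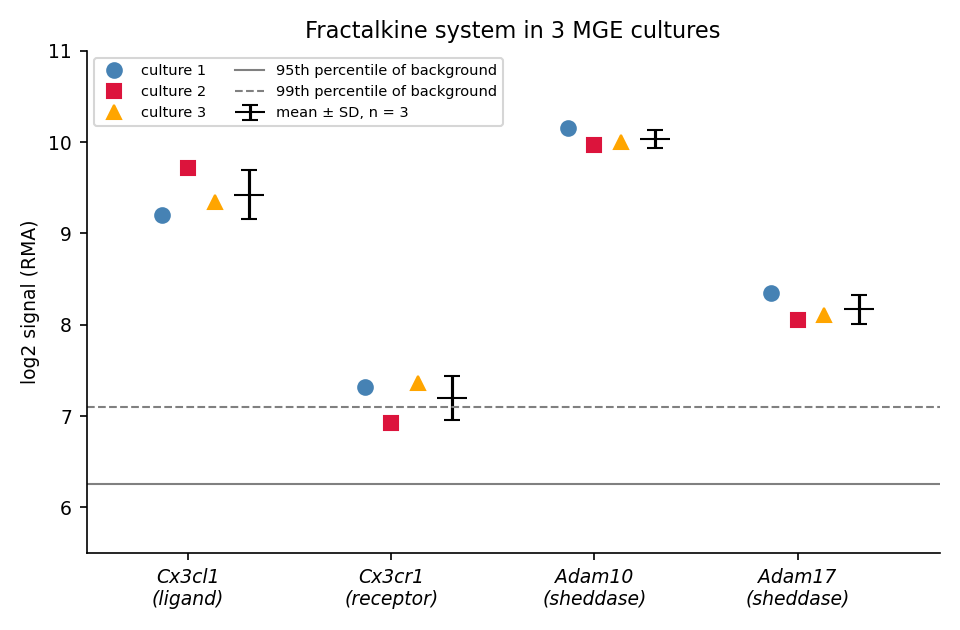
Log2 signal of Cx3cl1, Cx3cr1, Adam10 and Adam17 in cultures 1, 2 and 3 (coloured points), with the mean ± SD over n = 3 cultures beside them. The solid line is the threshold of 6.26 and the dashed line the 99th percentile of background, 7.10. Only for Cx3cr1 does a culture (culture 2, 6.92) fall between the lines.

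**Figure D2:**
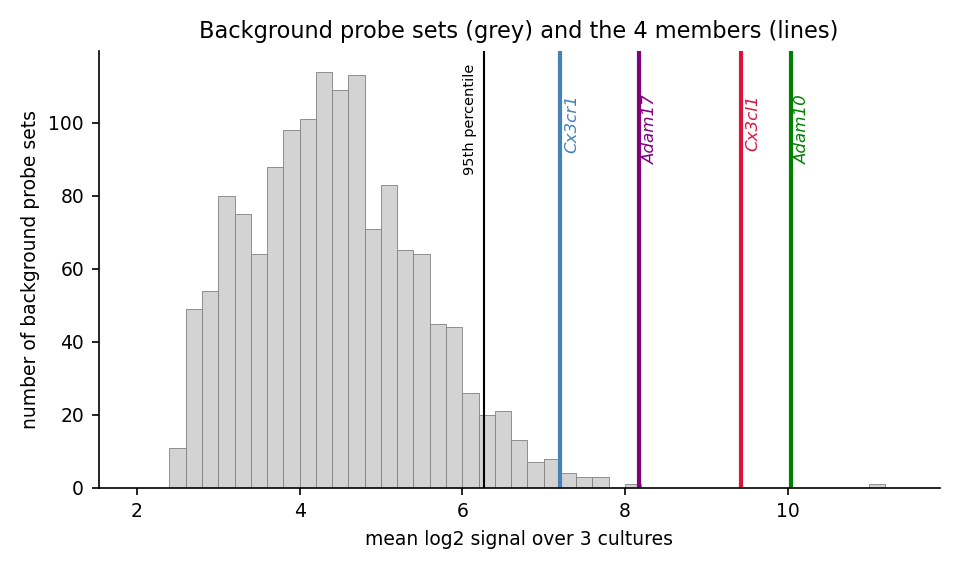
Histogram of the mean log2 signal of the 1435 background probe sets (grey bars, number of probe sets), with the threshold of 6.26 as a black line and the means of the 4 members as coloured lines. Cx3cr1 at 7.20 lies in the upper tail of the background, with 12 probe sets above it, whereas Cx3cl1 at 9.42 and Adam10 at 10.04 have 1 above them.

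The windows before the annotated starts of the ligand and receptor genes are shown because the content of CpG, the dinucleotide C followed by G, is a feature that the choice of the genes did not use and that went with the share of genes above background in these cultures. Each window is the 250 bases upstream of the RefSeq start in GRCm38.p6, written 5′ to 3′ along the gene's strand, with every CG in capitals. The Cx3cl1 window is chr8:94771930-94772179 on the plus strand and the Cx3cr1 window is chr9:120068297-120068546 on the minus strand.
Cx3cl1: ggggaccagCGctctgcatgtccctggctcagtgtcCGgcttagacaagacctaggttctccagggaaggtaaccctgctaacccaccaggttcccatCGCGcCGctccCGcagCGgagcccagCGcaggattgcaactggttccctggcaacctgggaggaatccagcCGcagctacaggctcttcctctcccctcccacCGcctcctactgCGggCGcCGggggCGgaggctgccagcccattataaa
Cx3cr1: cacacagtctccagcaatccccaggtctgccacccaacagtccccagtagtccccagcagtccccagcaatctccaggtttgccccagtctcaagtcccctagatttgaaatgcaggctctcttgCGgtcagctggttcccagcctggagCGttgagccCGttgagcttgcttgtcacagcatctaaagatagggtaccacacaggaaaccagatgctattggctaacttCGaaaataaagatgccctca
The Cx3cl1 window held 14 CpGs and the Cx3cr1 window 4, while those of Adam10 and Adam17 held 29 and 23. The median over 32851 windows was 6, and 37.8% of windows held fewer than that of Cx3cr1, against 70.6% for Cx3cl1, 93.2% for Adam10 and 86.7% for Adam17. The letters TATAAA, searched on both strands, occurred at position -6 from the start in the Cx3cl1 window and in none of the other 3, and 12.4% of all windows held them. Among the 13127 tested genes with 1 window, 24.1% of those with 5 or fewer CpGs were above background, 69.9% of those with 6 to 14 and 90.4% of those with 15 or more. Cx3cr1 was thus called from the class in which calls were least frequent, and Cx3cl1, Adam10 and Adam17 from the other classes. These shares are a description, with classes chosen after the windows had been seen, and they say nothing of which factors act there.

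Cx3cl1 was highest in culture 2, the culture in which the other 3 genes were lowest. There Cx3cl1 was 0.52 log2 units above culture 1 and 0.37 above culture 3. Cx3cr1 in culture 2 fell by 0.40 against culture 1 and by 0.44 against culture 3. Adam10 and Adam17 were lowest in culture 2 as well, with Adam10 0.18 and Adam17 0.30 log2 units above that level in culture 1. Culture 2 minus culture 3 was only -0.03 for Adam10 and -0.06 for Adam17, smaller in size than their SDs of 0.10 and 0.16. For both sheddase genes, culture 1 was thus the one that stood apart. After median centring of the arrays Adam10 was lowest in culture 3 instead (10.00 against 10.01 in culture 2). The other orders of highest and lowest culture were the same on the deposited scale, after quantile normalization and after median centring. With 1 array per culture no test between cultures exists.

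These spreads can be set beside those of other genes. The SD of Cx3cl1 was larger than that of 87.6% of the 500 probe sets nearest to it in level, whose median SD was 0.11, and that of Cx3cr1 was larger than 80.0%, with a median of 0.14. The SDs of Adam10 and Adam17 were larger than 50.2% and 60.8% of their neighbours. On the linear scale the highest culture was 1.43 times the lowest for Cx3cl1, 1.36 times for Cx3cr1, 1.23 times for Adam17 and 1.14 times for Adam10. Culture 2 was the highest for 52.1% of all genes above background and the lowest for 24.8%, shares that were 44.0% and 31.0% after quantile normalization and 62.9% and 17.4% after median centring. The place of Cx3cl1 was therefore that of many genes, and the place of Cx3cr1 that of fewer.

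The marker genes of the 7 lists differed between cultures too, whether or not each cell type was present. In cultures 1, 2 and 3 the interneuron genes deviated from their own means by medians of -0.16, 0.15 and 0.06, and the neuronal genes by -0.19, 0.13 and 0.02, where Cx3cl1 deviated by -0.22, 0.30 and -0.07. Cx3cl1 thus shared with both lists its highest culture, 2, and its lowest, 1. In culture 3 it lay under its mean, while both medians were positive. Culture 2 was the highest for 10 of 14 interneuron and 6 of 10 neuronal genes, beside 52.1% of all genes above background. Medians over all genes above background were -0.02, 0.04 and -0.02. Cx3cr1 deviated by 0.12, -0.28 and 0.16, and the microglial genes above background by medians of 0.03, -0.11 and 0.01. These 8 microglial genes were split, with 3 highest and 5 lowest in culture 2. Adam17 deviated by 0.18, -0.12 and -0.06 and Adam10 by 0.11, -0.07 and -0.04, beside medians of 0.21, -0.06 and -0.06 for the oligodendrocyte precursor genes, 0.23, -0.16 and -0.03 for the progenitor genes and 0.43, -0.46 and 0.03 for the astrocyte genes. The endothelial genes above background deviated by medians of 0.02, 0.12 and -0.10, so that they too were highest in culture 2. For these 7 lists the sign in culture 2 was the same under both other scalings. Summed on the linear scale over all measured members, the signal in cultures 1, 2 and 3 was 23278, 28946 and 27583 for interneuron genes, 14042, 11241 and 11708 for oligodendrocyte precursor genes, 12260, 7803 and 9353 for astrocyte genes and 1992, 1800 and 1903 for microglial genes. The microglial sum includes 11 genes that were not called. Its 2 genes called with the margin of 1 moved apart. From culture 1 to culture 2, Sall1 fell from 8.51 to 7.67 and Cd68 rose from 8.28 to 8.55. Over cultures 1, 2 and 3 Sall1 deviated by 0.42, -0.42 and 0.00, close to the astrocyte medians, and Cd68 by -0.04, 0.22 and -0.18. Which cells gave either signal cannot be told. The sum is thus no measure of the microglial genes as a set. The part of these cell types in the spread of Cx3cl1, Cx3cr1, Adam10 and Adam17 was not tested.

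**Figure D3:**
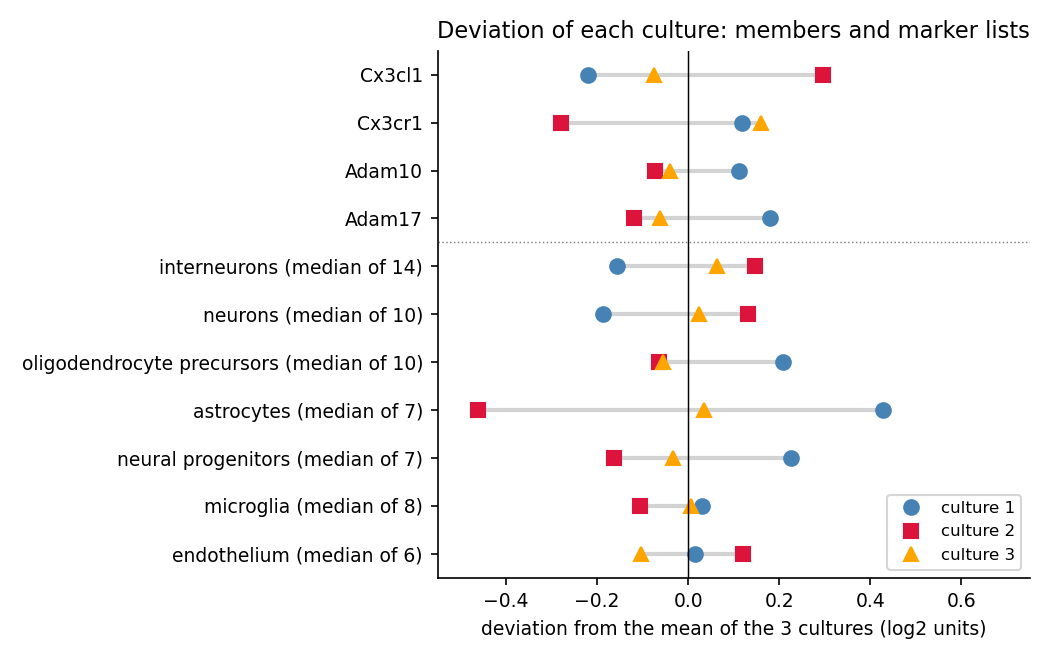
Deviation of cultures 1, 2 and 3 from the mean of the 3 cultures, in log2 units, for the 4 members (above the dotted line) and as the median over the genes above background of 7 marker lists (below it). Culture 2 is at 0.30 for Cx3cl1 and at -0.28 for Cx3cr1, and at 0.15 for interneuron and -0.46 for astrocyte genes.

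Of the 19 measured microglial genes 8 were called and 11 were not, where 63.4% of all genes tested were called. Csf1r, the receptor microglia need to survive, had log2 signals of 6.27, 6.50 and 6.31 in cultures 1, 2 and 3 (limma, adjusted p = 0.181), and Tmem119, a microglial membrane protein, had 6.43, 6.12 and 6.29 (adjusted p = 0.629). Neither passed the test. Aif1, a calcium-binding protein of microglia, passed with 6.43, 6.66 and 6.55 (adjusted p = 0.0101), and so did P2ry12, a purine receptor of microglia, with 6.49, 6.41 and 6.53 (adjusted p = 0.0123). With the margin of 1, Cd68 and Sall1, named after their values were seen, were the 2 of 19 microglial genes called, beside 47.6% of all genes. The arrays do not tell which cells gave these 2 signals, so they are no sign of microglia by themselves. The count of 8 was 2 at the 99th percentile, 14 at the 90th and 3 without culture 3. Of all genes, 49.8%, 72.5% and 60.7% were called under these rules. Cx3cr1 itself was left out of the list. Of the oligodendrocyte precursor genes, Pdgfra, the growth factor receptor of these cells, had 11.51, 11.42 and 11.42 in the 3 cultures. With the margin of 1, 9 of the 10 were called, beside the same 47.6%.

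The other genes of the pathway were described by 6 lists with 65 genes, of which 61 had a probe set of their own. Of the 61, 52 were above background, where 63.4% of all genes tested were. The median of the 61 log2 signals was 8.51 beside 7.34 over all genes tested, values that also carry differences in probe binding and are no comparison of expression. The list counts below stand beside the same 63.4%, and those with the margin of 1 beside 47.6%. Among 17 genes that mature, carry or inhibit the sheddases, 14 were above background (13 with the margin of 1). The proprotein convertases, whose family removes the inhibitory prodomain of Adam10 and Adam17, were all called: Furin had 9.12 ± 0.11, Pcsk5 8.08 ± 0.12, Pcsk6 9.28 ± 0.35 and Pcsk7 8.25 ± 0.14 (SD, n = 3). Pcsk6 was highest in culture 2, at 9.65 against 8.96 and 9.24 in cultures 1 and 3.

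The iRhoms, inactive rhomboid proteins that bring Adam17 to the cell surface, differed in their calls. Rhbdf1, the gene of iRhom1, had 8.06, 8.07 and 8.10 in cultures 1, 2 and 3 and was called. Rhbdf2, the gene of iRhom2, had 6.30, 6.11 and 6.33 and was not (limma, adjusted p = 0.858), its mean of 6.25 lying next to the threshold. Frmd8, which stabilizes the complex of iRhom and Adam17, had 8.89 ± 0.18 and was called.

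The tetraspanins of the C8 group, which take Adam10 to the surface and direct it to substrates, were called for 5 of 6 genes. Tspan5 had 9.69 ± 0.07, Tspan14 10.14 ± 0.13, Tspan15 8.38 ± 0.23, Tspan17 8.03 ± 0.26 and Tspan33 7.29 ± 0.18, while Tspan10, with 5.65 ± 0.13, was not called. Tspan33 was the 1 among the 5 that was not called with the margin of 1.

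Genes of sheddase inhibitors were above background as well, except Timp1. Timp3, an inhibitor of Adam17 and Adam10, had 10.47, 9.86 and 9.92 in cultures 1, 2 and 3 and was, like both sheddase genes, highest in culture 1. Sfrp1, a secreted Wnt regulator that also inhibits Adam10, had 11.41 ± 0.06, and Reck, a membrane-anchored protease inhibitor, had 7.98 ± 0.11. All of these were called. Timp1, an inhibitor of Adam10, had 6.55, 6.71 and 6.18 and was not (adjusted p = 0.106), but it was called without culture 3 (limma, adjusted p = 0.0252; range over the alternatives 0.00354 to 1).

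Among other proteases that act on fractalkine, 6 of 7 measured genes were above background (5 with the margin of 1). Ctss, cathepsin S, a lysosomal protease of microglia and other myeloid cells, had 5.85, 5.65 and 5.76 and was not called. Mmp2, a matrix metalloprotease, had 8.65, 9.11 and 8.38 and was called. The remaining members belong to gamma-secretase, which cuts the membrane stub left after shedding: Psen2 had 7.05 ± 0.18, Ncstn 10.30 ± 0.11, Aph1a 10.94 ± 0.09, Aph1b 8.44 ± 0.13 and Psenen 11.47 ± 0.15. All 5 were called, and Psen2 was the exception with the margin of 1.

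Of 12 genes for signalling from the receptor and for integrins that bind fractalkine, 11 were above background (9 with the margin of 1). The inhibitory G protein subunits Gnai1 (11.42 ± 0.27), Gnai2 (11.24 ± 0.15), Gnai3 (10.16 ± 0.03) and Gnao1 (12.76 ± 0.13), the arrestins Arrb1 (10.39 ± 0.26) and Arrb2 (9.60 ± 0.04) and the kinase subunit Pik3cb (8.62 ± 0.11) were called. These serve many receptors. Pik3cg, the form of that kinase known from blood cells, had 6.00 ± 0.13 and was not called. Among the integrins, Itgav (9.66 ± 0.20) and Itgb1 (9.79 ± 0.12) were called under both rules. Itgb3 (6.55 ± 0.06), which pairs with Itgav, and Itga4 (6.69 ± 0.20), which pairs with Itgb1, were called only without the margin. The call of Itga4 was lost without culture 2 (limma, adjusted p = 0.0676) and without culture 3 (adjusted p = 0.0579), with a range over the alternatives of 0.000572 to 1. Itgav has 2 probe sets, of which 1 was called.

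Cxcl16, the other chemokine made as a membrane protein and shed by the same proteases, had 6.80, 6.86 and 6.71 in cultures 1, 2 and 3 (limma, adjusted p = 0.000622) and was called, though neither at the 99th percentile nor with the margin of 1. Its receptor gene Cxcr6 had 5.25, 5.39 and 5.39. Ccl26, listed here as a further ligand of Cx3cr1, had 5.43, 5.43 and 5.47, and whether it acts on the mouse receptor was not examined. Neither Cxcr6 nor Ccl26 was called. Among the ligand genes listed here, Cx3cl1 was the one that stayed above background under each threshold tried.

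The sheddases cut many proteins besides fractalkine. Of the other substrates of Adam10, 11 of 11 measured were above background, all with the margin of 1 too. Among them Notch1 (9.74 ± 0.29) and Notch2 (8.46 ± 0.44), receptors that help to maintain neural progenitors, Cdh2 (11.44 ± 0.14), the N-cadherin of neural cells, and App (12.26 ± 0.17), the amyloid precursor protein, are named here as the first 4 in the order of the list, not for their level. Of the other substrates of Adam17, 9 of 11 were above background (6 with the margin of 1). Tnf, the cytokine whose release gave Adam17 its other name, TACE, had 6.18, 6.15 and 6.16, and Tnfrsf1b, a receptor for it, had 6.37, 6.11 and 6.39. Neither was called (adjusted p = 1 and 0.552). Tgfa, a ligand of the EGF receptor, had 8.27 ± 0.30 and Hbegf, another such ligand, 8.67 ± 0.24, and both were called. The call of Ereg, also a ligand of that receptor, was lost without culture 2 (limma, adjusted p = 0.0679; range over the alternatives 0.00034 to 1).

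**Figure D4:**
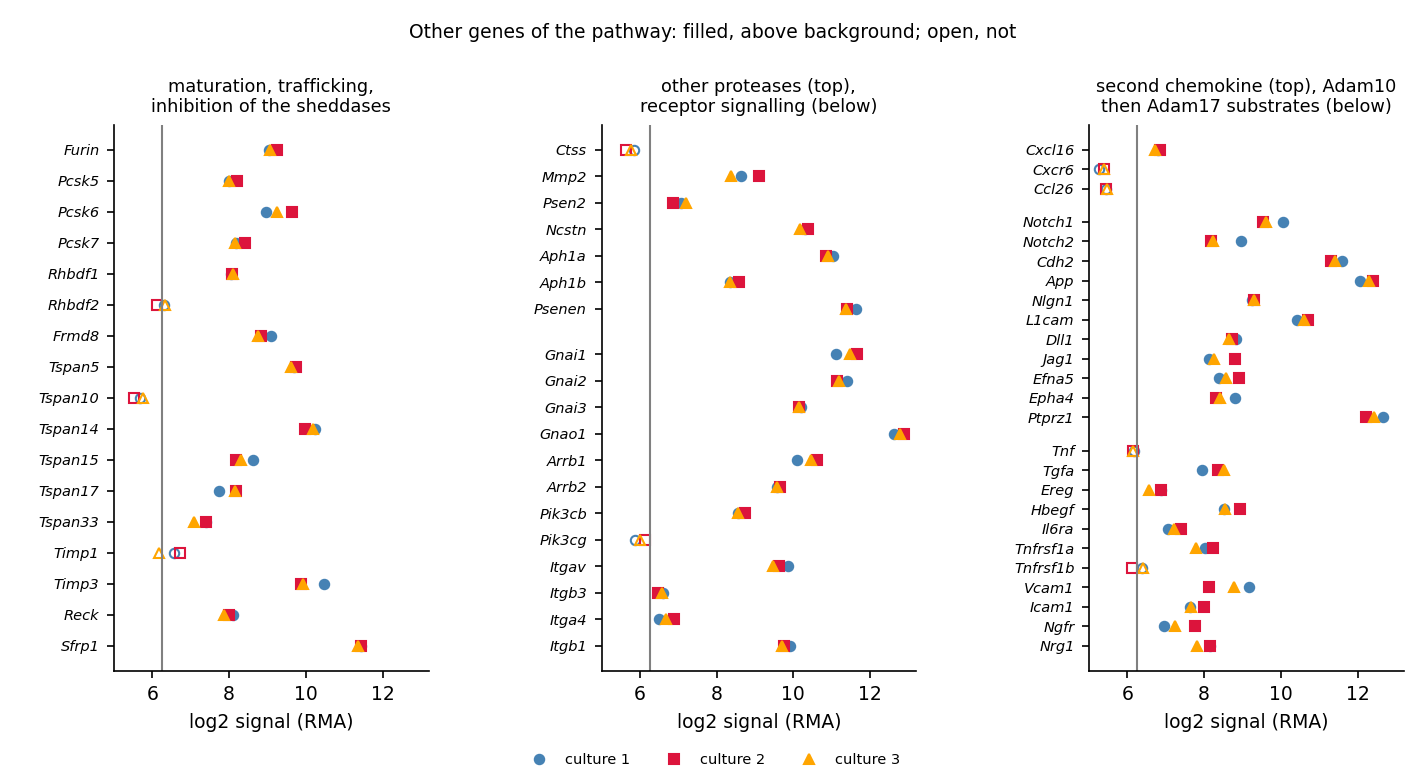
Log2 signal in cultures 1, 2 and 3 of the 61 measured genes in the 6 pathway lists, with filled symbols for genes above background and open symbols for those not called, and the threshold of 6.26 as a grey line. Rhbdf2, Tspan10, Timp1, Ctss, Pik3cg, Cxcr6, Ccl26, Tnf and Tnfrsf1b are the 9 genes with open symbols.

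The pathway genes whose deviations over the 3 cultures were most like those of each member were found among the 52 above background, by the root mean square difference in log2 units. For Cx3cl1 they were Efna5 (0.022), an ephrin, Hbegf (0.060) and Itga4 (0.065). For Cx3cr1 they were Psen2 (0.072), Tspan14 (0.10) and Ptprz1 (0.12), a receptor phosphatase of glia and precursors. For Adam10 they were Aph1a (0.0071), Cdh2 (0.038) and Itgb1 (0.043), and for Adam17 Gnai2 (0.0069), Psenen (0.031) and Cdh2 (0.033). Adam10 and Adam17 shared Cdh2, while Cx3cl1 and Cx3cr1 shared no gene with each other or with the sheddases. This follows from the deviations of the members given above, which are alike for the sheddases, and is no separate result. With 3 cultures, values this small are easily met, and they describe these arrays alone.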

How the data were processed

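Per the labels, biotinylated cDNA from 100 ng of total RNA of each of the 3 cultures was put on an array, 1 array per culture. The values are log2 signals of probe sets as deposited by the authors. The submitters' processing notes name oligo and RMA (background correction, joint normalization of the arrays, summary of the probes of a set). Their versions, settings and genome build were not given in the sources used here. Joint normalization removes differences in total RNA, so values are relative within an array. Arrays have no read depth.

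The platform annotation gives 23521 probe sets 1 symbol, 1814 several and 16010 none, and those with 1 were used. A gene with several probe sets was called if any of them was, and its highest one is printed. With limma 3.58.1 in R 4.3.3, an intercept was fitted over the 3 cultures for the 22086 probe sets outside the background set, and a 1-sided moderated test asked if it lay above the 95th percentile of background. P was adjusted over all 22086 by Benjamini-Hochberg (threshold 0.05). Intervals come from the same fit. Alternatives to the call numbered 14.

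In a simulation of that fit with 22086 probe sets, of 50 raised by 0.25, 0.5, 1 and 2 log2 units over the threshold, 34, 47, 50 and 50 were called, and 6 of 7320 truly below it were. The noise was drawn independently for each probe set and culture, and sets not raised kept their observed means. No shift shared by the genes of an array was simulated, so these counts are not the error rates of the real arrays. The naming rule covered the 4 members, members of the first 4 pathway lists, the first 4 and the uncalled members of the substrate lists, the first 4 of each marker list and, for each member, the 3 most alike pathway genes. Not every gene that it covers is named. Others were chosen after their values were seen. The members and lists were chosen with earlier results of these data known. Promoter windows came from RefSeq's GRCm38.p6 table, which matched 4 of 4 members.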

Additional observations from a re-analysis of the deposited data

How the results depend on the processing

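Cx3cl1, Adam10 and Adam17 were called under all 14 alternatives, with means 2.16 to 3.60, 2.78 to 4.22 and 0.91 to 2.35 log2 units over the line. The alternatives were the 99th and 90th percentile of background, olfactory receptors alone, vomeronasal and taste receptors alone, a margin of 1, every culture above the line, limma's prior with an intensity trend, quantile normalization, median centring, no dim probe sets, the mean of a gene's probe sets, and each culture left out. Cx3cr1 was called under 12 of them. At the 99th percentile its mean was 0.10 over the line and not called, and with the margin of 1 it was at -0.063, under the line. Both alternatives raise the line by construction. With each culture left out in turn, Cx3cr1 remained called, with a highest adjusted p of 0.0139. The list of Cxcl16, Cxcr6 and Ccl26 had 1 gene called, and 0 at the 99th percentile and 0 with the margin of 1. The counts of the other 5 pathway lists, and of all genes (9876 to 15050, against 13152), stayed within 1.5 times the main count. No paired analysis was possible because all cultures belong to 1 group. The spans between cultures rest on 1 library each: without culture 2 that of Cx3cl1 was 0.15 in place of 0.52 and that of Cx3cr1 0.04 in place of 0.44, and without culture 1 that of Adam10 was 0.03 in place of 0.18 and that of Adam17 0.06 in place of 0.30. Signal near background limits Cx3cr1, Cxcl16 and the microglial and endothelial lists, whose counts of 8 and 6 were 2 and 0 with the margin of 1.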
